A study of Sus scrofa with 6 samples.

Results

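The genes described here are 6 that encode epithelial or glycosylated cell surface proteins, and the transcription factor ELF3. They are MUC1, CD24, CD90, TSPAN1, TACSTD1, GPR110 and ELF3, 7 of the 10915 genes with values in the deposited table, and each was taken as the row whose gene symbol equals that name. TACSTD1 is the older name of EPCAM, CD90 of THY1 and GPR110 of ADGRF1. RNA was sequenced from epithelial cells of pig endometrium, the lining of the uterus, kept in primary culture to passage 3, isolated from slaughterhouse uteri and grown on collagen in medium with foetal bovine serum. The 3 exosome libraries came from cells given 10 µg per well of exosomes for 48 h, small membrane vesicles that had been precipitated out of boar seminal fluid (its sperm-rich fraction). The 3 control libraries came from cells given no exosomes, per the design text. Whether libraries within a group stem from different uteri, wells or boars is not stated by the labels, so a p here measures only spread among libraries that may be technical replicates. All levels below are FPKM, read fragments normalised for the length of a transcript and the size of its library, which allow levels of different genes to be compared.

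The surface of the uterine epithelium carries a glycocalyx of mucins and smaller sugar-bearing proteins, and an embryo meets this layer before it can attach. Transmembrane mucins such as MUC1 mask adhesion molecules there, and in pigs MUC1 is reduced on the luminal epithelium as the uterus becomes receptive. Tetraspanins such as TSPAN1 organise membrane proteins into patches, EPCAM links neighbouring epithelial cells, and ELF3 is an ETS-family transcription factor found mainly in epithelia. The files hold no measurement of binding, so whether ELF3 controls the other genes was not tested.

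The members were chosen by their exosome and control FPKM in these libraries, with the differences between the groups known. Their differences between the groups are therefore given as a description, with no test. Log2 changes and standard errors (SE) come from a limma fit over all genes whose mean reached 1 FPKM, on the log2(FPKM + 1) scale, exosome minus control. In that fit 0 of 10846 genes (0%) passed an adjusted p of 0.05 with Benjamini-Hochberg adjustment, the 7 members included, while at an unadjusted p below 0.05 there were 813 (7.5%) on the lower side and 549 (5.06%) on the higher side.

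In 6 of the 7 members, every exosome library lay below every control library, and TACSTD1 was the exception. Over all genes tested the same separation was met by 10.4% with the exosome group lower and by 8.29% with it higher. Among the 2683 genes at or above the level of GPR110, the least abundant member, these shares were 15.3% and 7.86%. With the libraries rescaled to the same FPKM sum, the shares over all genes became 5.38% lower and 15.2% higher, and the same 6 of 7 members remained below the controls. The contrast was used to choose the members, so nothing is read from their count.

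**Figure D1:**
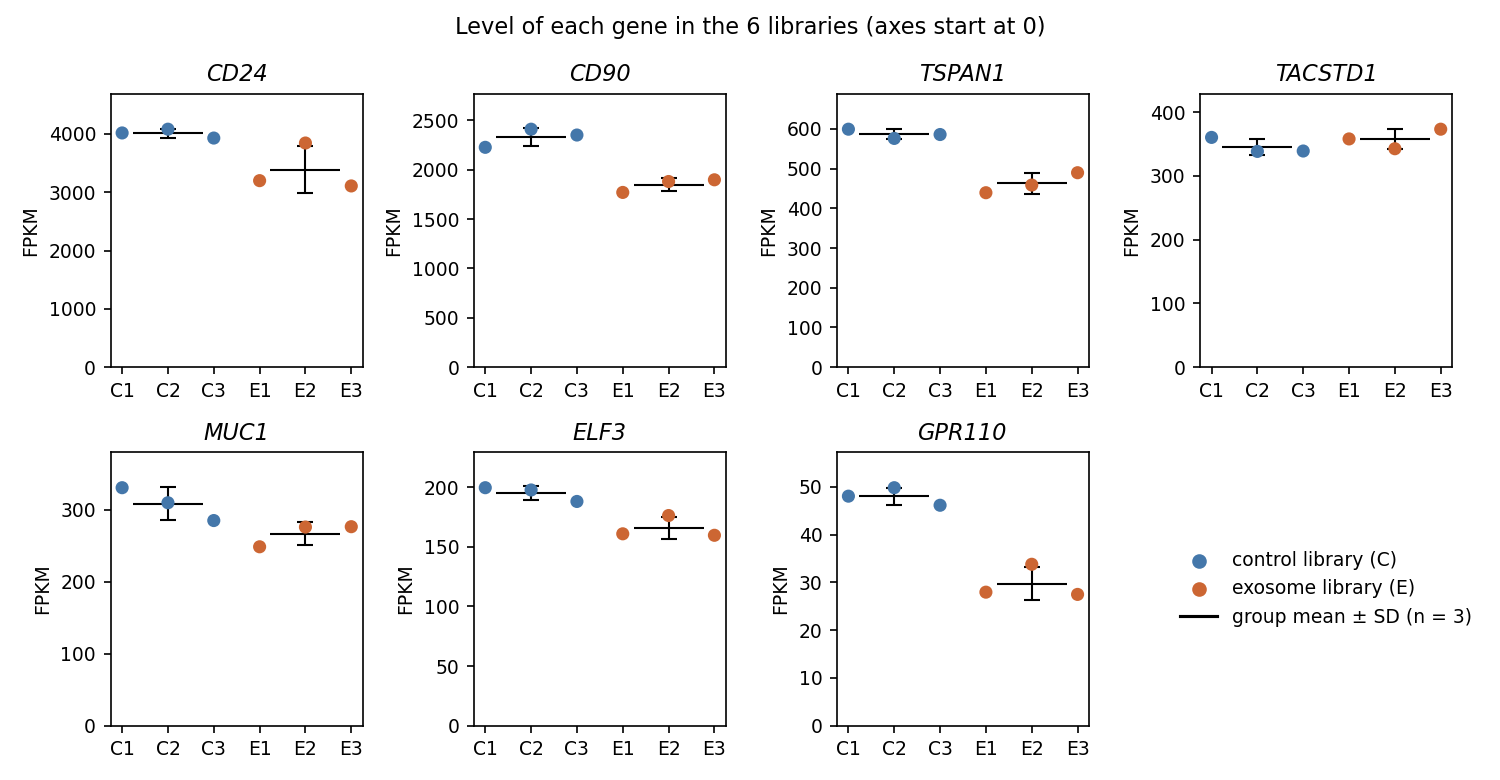
FPKM of the 7 genes in each library, ordered from the most to the least abundant, with points for the libraries and black bars for the group mean ± SD (n = 3). All points of the exosome group lie below those of the control group except in TACSTD1, where the exosome points (342.5 to 373.1) overlap the control points (338.3 to 360.3).

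MUC1 (ENSSSCG00000006525) encodes the transmembrane mucin of the apical surface and lies on chromosome 4, from 94626317 to 94631194, in RefSeq's Sscrofa11.1 table, the build named in the submitters' processing notes. It was at 330.3, 309.4 and 284.7 FPKM in control replicates 1, 2 and 3 and at 248.3, 275.7 and 276.2 in exosome replicates 1, 2 and 3. The groups did not overlap, but the gap was narrow, since exosome replicate 3 lay 3.00% below control replicate 3, the lowest control. The means were 308.2 ± 22.8 and 266.7 ± 15.96 FPKM (SD, n = 3), and the log2 change was -0.21 (SE 0.07). The spread among the controls was 7.41% of their mean, the widest control spread of the 7 genes, against a median of 3.36% in the 2683 genes at or above the level of GPR110.

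CD24 (ENSSSCG00000031023) encodes a short, heavily sialylated protein held in the membrane by a GPI anchor, a lipid tail that replaces a membrane-spanning segment. It was the most abundant member, in place 18 among all genes tested by mean level, with 4016, 4080 and 3928 FPKM in control replicates 1 to 3. The exosome libraries were at 3198, 3843 and 3107 FPKM. Exosome replicate 2 lay only 2.17% below the lowest control, whereas exosome replicates 1 and 3 were well below it. The means were 4008 ± 76.2 and 3383 ± 401 FPKM (SD, n = 3), and the log2 change was -0.25 (SE 0.08). The log2 change was -0.35 without exosome replicate 2. With quantile normalization it shrank to -0.08 and the groups overlapped, so the size of the CD24 difference depends on the scaling used.

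CD90 (ENSSSCG00000015122) encodes THY1, a GPI-anchored protein of the immunoglobulin superfamily known from mouse T cells, neurons and fibroblasts, on chromosome 9 from 46607022 to 46612691. Its levels were 2226, 2409 and 2350 FPKM across the controls and 1769, 1880 and 1897 across the exosome libraries. All 3 exosome libraries lay close together, and the highest was 14.8% below the lowest control. The means were 2328 ± 93.7 and 1849 ± 69.4 FPKM (SD, n = 3), and the log2 change was -0.33 (SE 0.05).

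TSPAN1 (ENSSSCG00000003908), a tetraspanin of secretory and glandular epithelia on chromosome 6 from 165224619 to 165229516, was at 599.4, 576.1 and 586.0 FPKM in the controls. In the exosome libraries it was at 439.4, 458.7 and 489.8 FPKM. The control libraries agreed within a spread of 1.99% of their mean, and the highest exosome library lay 15.0% below the lowest of them. The means were 587.2 ± 11.7 and 462.6 ± 25.4 FPKM (SD, n = 3), and the log2 change was -0.34 (SE 0.05).

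TACSTD1 (ENSSSCG00000008429) encodes EPCAM, the adhesion molecule that defines most epithelial cells, on chromosome 3 from 93169800 to 93185221. It was at 360.3, 338.3 and 338.9 FPKM across the controls and at 357.9, 342.5 and 373.1 across the exosome libraries. The ranges overlapped, with exosome replicate 3 the highest and control replicate 2 the lowest of the 6 libraries. The means were 345.8 ± 12.5 and 357.9 ± 15.3 FPKM (SD, n = 3), and the log2 change was 0.05 (SE 0.05). Its log2 change stayed between 0.02 and 0.10 under the alternative settings.

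GPR110 (ENSSSCG00000001726) encodes the adhesion receptor ADGRF1, of the class of G protein-coupled receptors with long extracellular parts, and is known in mouse brain as the receptor of a docosahexaenoic acid amide. It spans chromosome 7 from 41806385 to 41853829. Its levels were 48.1, 49.8 and 46.2 FPKM across the controls and 27.96, 33.8 and 27.5 across the exosome libraries. Exosome replicate 2 was again the nearest to the controls, yet still 26.8% below the lowest of them. The means were 48.0 ± 1.84 and 29.7 ± 3.52 FPKM (SD, n = 3), a difference of -38.0% and a log2 change of -0.68 (SE 0.08). Of the 10846 genes tested, 25 had a more negative log2 change, and GPR110 was chosen with its difference known.

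ELF3 (ENSSSCG00000010922), on chromosome 10 from 24237852 to 24242266, was at 199.4, 197.5 and 187.9 FPKM across the controls and at 160.8, 176.1 and 159.6 across the exosome libraries. The highest exosome library, replicate 2, was 6.28% below the lowest control. The means were 195.0 ± 6.18 and 165.5 ± 9.22 FPKM (SD, n = 3), and the log2 change was -0.24 (SE 0.05). The size of the ELF3 difference was close to those of MUC1 and CD24, with -15.1% for ELF3, -13.4% for MUC1 and -15.6% for CD24.

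The order of the 7 levels was the same in all 6 libraries, CD24 above CD90, TSPAN1, TACSTD1, MUC1, ELF3 and GPR110. The closest neighbours were TACSTD1 and MUC1, whose ratio ranged from 1.09 to 1.44 over the libraries. Each pair of neighbours was apart by more than its spread, since the lowest library of the upper gene lay above the highest library of the lower gene. Of the FPKM summed over the 10915 genes with values, the 7 genes together made up 1.06% to 1.09% in the control libraries. In the exosome libraries they made up 0.890% to 0.990%.

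Over all genes tested, exosome replicate 2 was nearer to each control library than to either other exosome library. The SD of its log2(FPKM + 1) difference was 0.231, 0.203 and 0.201 from control replicates 1, 2 and 3. From exosome replicates 1 and 3 it was 0.244 and 0.251. Among the members, the exosome library that lay nearest the controls differed. Relative to the control mean, the median of the 6 lower members was -0.36 on the log2(FPKM + 1) scale in exosome replicate 1, -0.23 in replicate 2 and -0.29 in replicate 3. In CD24, GPR110 and ELF3 exosome replicate 2 was the nearest to the controls, at -0.06, -0.49 and -0.15. In MUC1, CD90 and TSPAN1 the exosome library farthest from the controls was replicate 1, at -0.31, -0.40 and -0.42, and replicates 2 and 3 lay nearer. Without exosome replicate 2, 297 of all genes passed an adjusted p of 0.05 in limma, 204 of them (1.88% of the genes tested) lower. Without control replicate 3, 1 gene passed.

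**Figure D2:**
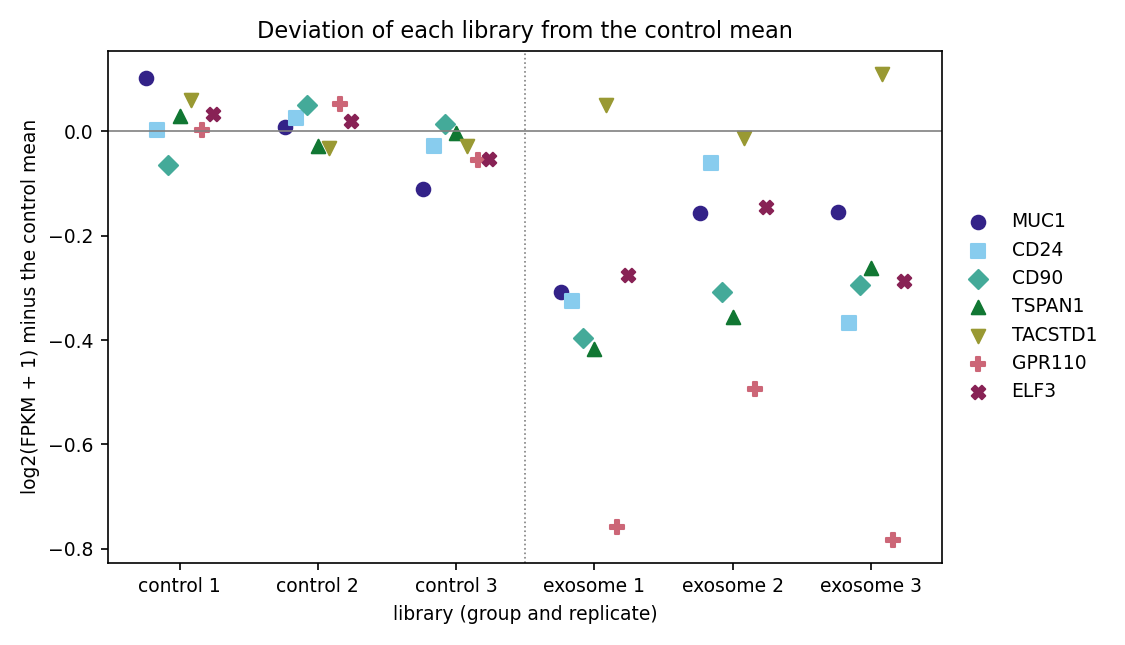
Each library's log2(FPKM + 1) minus the mean of the 3 control libraries for the 7 genes, with the control libraries left of the dotted line and the exosome libraries right of it. GPR110 lies lowest, at -0.76, -0.49 and -0.78 in exosome replicates 1 to 3, TACSTD1 stays within 0.11 of the control mean, and the other genes lie between.

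Set against all genes by level and change, the members stood in the upper part of the level range. MUC1, CD24, CD90, TSPAN1, TACSTD1 and ELF3 were above 94.5% of the genes tested in mean FPKM, and GPR110 above 75.3%. The median log2 change was -0.00229 over all genes tested and -0.02 over the 2683 genes at or above the level of GPR110.

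**Figure D3:**
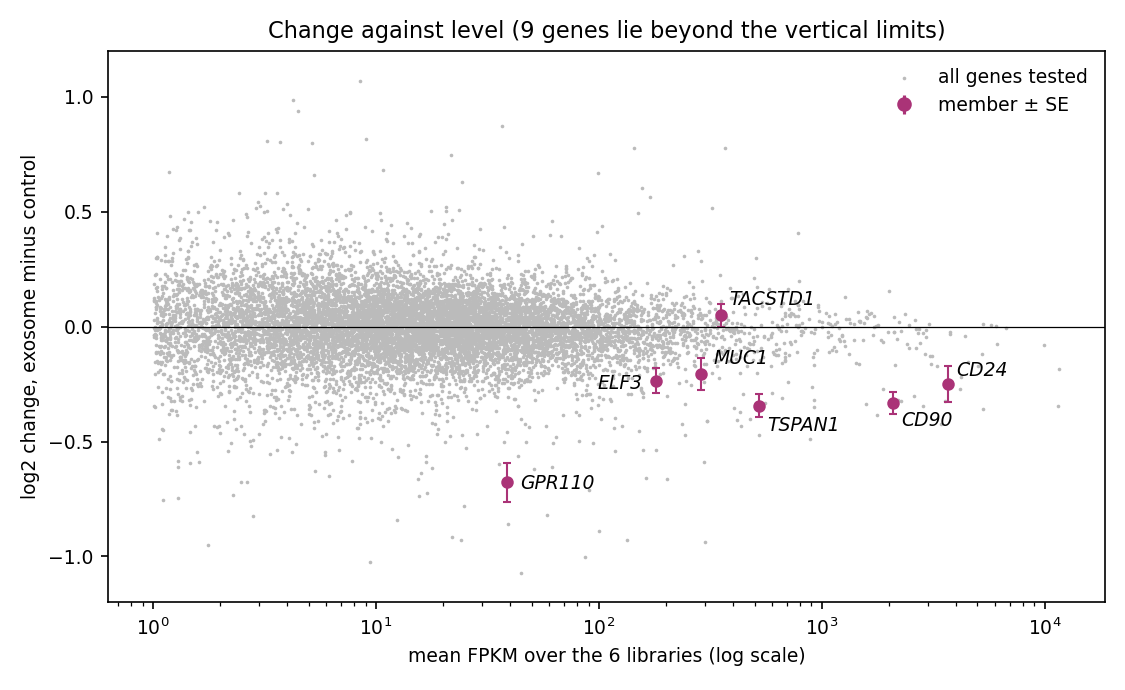
Log2 change (exosome minus control) against mean FPKM on a log axis for the 10846 genes tested in grey, with the 7 genes in colour and bars of ± SE. GPR110 is set apart at -0.68 with a mean of 38.9 FPKM, and CD24 and CD90 lie at the abundant end with changes of -0.25 and -0.33; 9 genes lie beyond the vertical limits.

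Levels were also expressed relative to TACSTD1, the epithelial gene of the set whose groups overlapped. The ratio of MUC1 to TACSTD1 was 0.917, 0.915 and 0.840 in control replicates 1 to 3 and 0.694, 0.805 and 0.740 in exosome replicates 1 to 3. For TSPAN1 the ratio averaged 1.70 ± 0.0328 in controls and 1.29 ± 0.0582 with exosomes (SD, n = 3). For GPR110 it averaged 0.139 ± 0.00736 and 0.0835 ± 0.0133. The groups did not overlap in this ratio for MUC1, CD90, TSPAN1, GPR110 and ELF3. Over all other genes tested, the ratio separated with the exosome group lower in 12.5% and higher in 3.99%, and since both the members and TACSTD1 were taken with their values known, nothing is read from the members' count. CD24 was the exception, at 11.15, 12.06 and 11.59 across the controls and 8.94, 11.2 and 8.33 across the exosome libraries, where exosome replicate 2 lay inside the control range. In RNA from whole cultures, fewer cells of a type and less RNA per cell cannot be told apart.

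The label of epithelial cells was checked against cell type markers. Of 15 epithelial markers 11 had values, led by KRT19, KRT8 and KRT18, the keratins of simple epithelia, at means of 3193, 3037 and 1255 FPKM in the controls. The summed level of the 10 that are not members ranged from 9313 to 9555 FPKM in the control and from 8063 to 8932 in the exosome libraries (exact permutation p = 0.1, two-sided, the smallest that 3 against 3 libraries allow). In 4 of these 10 (40.0%, against 10.4% of all genes) the exosome libraries lay lower without overlap, KRT8, RAB25, CLDN4 and CLDN3, with log2 changes of -0.12, -0.31, -0.35 and -0.43. Among genes at or above the level of GPR110, the share lower without overlap was 15.3%. TACSTD1, with values as deposited, was the only 1 of the 11 with a positive log2 change. The identifier of CLDN3 carries the symbol CLDN9 in the reference table. Of the 10, 0 had a positive log2 change as deposited, 2 with the libraries rescaled to the same sum and 1 with quantile normalization. The part of this shift in the members' values was not tested.

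CD90 is usually read as a marker of stromal and mesenchymal cells, so its level was set beside other stromal markers, of which 5 of 14 had values, CD90 included. VIM, an intermediate filament that cultured epithelial cells also make, was at 556.7 ± 52.4 FPKM in controls and 505.3 ± 63.6 with exosomes (SD, n = 3), and COL1A2, a chain of type I collagen, at 50.9 ± 4.67 and 47.5 ± 2.46. COL1A1, the other chain of type I collagen, was at 2.48, 30.0 and 14.7 FPKM across the controls and at 20.4, 6.27 and 0.887 across the exosome libraries. COL3A1, of type III collagen, ranged from 0.114 in exosome replicate 3 to 2.05 in exosome replicate 1. The highest library exceeded the lowest 33.9-fold in COL1A1 and 17.97-fold in COL3A1, against 1.25-fold in COL1A2, 1.42-fold in VIM and 1.36-fold in CD90. These ratios span both groups, which overlapped in VIM and COL1A2 but not in CD90, so for CD90 they include the group difference. For the epithelial gene KRT8, whose groups did not overlap either, the ratio was 1.16. Which cells carried CD90 was not tested.

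Summed without CD90, the 4 stromal markers ranged from 562.5 to 678.0 FPKM in the control and from 505.0 to 596.8 in the exosome libraries, and the groups overlapped (exact permutation p = 0.3, two-sided). VIM, which cultured epithelial cells also make, held most of this sum, with a control mean of 556.7 of 624.6 FPKM. The sum therefore does not measure stromal cells alone. Of 8 smooth muscle and pericyte markers 2 had values, TAGLN and MCAM, with a summed level of 138.0 to 154.0 FPKM in the control and 91.8 to 152.2 in the exosome libraries (exact permutation p = 0.3, two-sided). TAGLN held most of it, with a control mean of 132.8 of 144.1 FPKM. The 3 immune markers with values, of 10 listed, were LCP1, CD68 and CD14, with 150.4 to 159.2 and 117.2 to 152.1 FPKM (exact permutation p = 0.2, two-sided). LCP1, an actin-bundling protein that some cultured epithelial cells also make, held most of that sum. KDR, the 1 endothelial marker with values of 9, was at 1.26 to 1.96 and 0.968 to 1.16 FPKM, and ACRBP, the 1 sperm marker with values of 10, at 2.73 to 2.94 and 1.83 to 2.42 (exact permutation p = 0.1 each, two-sided). The part of these markers in the members' values was not tested.

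**Figure D4:**
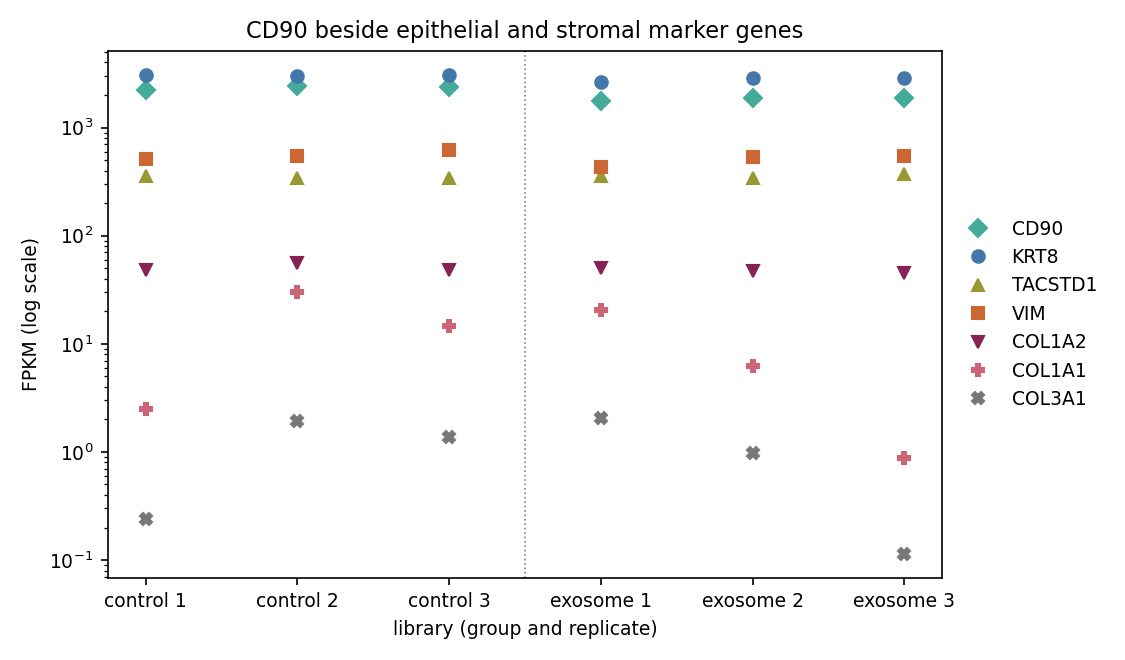
FPKM on a log axis of CD90, the epithelial genes KRT8 and TACSTD1, and the stromal markers VIM, COL1A2, COL1A1 and COL3A1 in each library. CD90 lies between 1769 and 2409. Over both groups its highest library exceeds its lowest 1.36-fold, as against 1.16-fold in KRT8, 1.25-fold in COL1A2, 1.42-fold in VIM, 33.9-fold in COL1A1 and 17.97-fold in COL3A1.

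The other mucins and sialomucins were counted from a list of 28 genes, of which 11 had values and 9 were not members. Of these 9, 0 passed an adjusted p of 0.05 in limma. With an unadjusted p below 0.05, 2 lay lower and 0 higher, against 7.5% and 5.06% of all genes. Their median log2 change was -0.09 against -0.00229 over all genes. The groups did not overlap in PARM1 and MUC20, 22.2% of the 9. The share lower without overlap was 10.4% of all genes and 15.3% of those at or above the level of GPR110. With the libraries rescaled to the same sum, 1 of the 9 lay lower and 1 higher without overlap, against 5.38% and 15.2% of all genes. PARM1, a mucin-like membrane protein, was at 91.2, 82.9 and 84.0 FPKM across the controls and 76.9, 75.7 and 67.2 across the exosome libraries (log2 change -0.23). MUC20 was at 161.7, 156.6 and 153.6 and at 151.8, 142.8 and 138.1 FPKM (log2 change -0.12). CD164, a sialomucin, and MUC4, a large transmembrane mucin, were the other abundant ones, with log2 changes of -0.10 and -0.09 and overlapping groups. The list median including MUC1 and CD24 was -0.10 and moved to 0.02 without exosome replicate 3, so its sign rested on that library.

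Among tetraspanins, 19 of 32 listed had values and 18 were not members. Of the 18, 0 passed in limma, and 3 lay lower and 1 higher with an unadjusted p below 0.05, against 7.5% and 5.06% of all genes. In 3 (16.7%, against 10.4% of all genes) the groups did not overlap with the exosome group lower. The median log2 change was -0.04, or 0.0051 with the libraries rescaled to the same sum. TSPAN7 had a profile of the same size as TSPAN1, at 21.0, 20.4 and 21.0 FPKM across the controls and 16.004, 17.02 and 17.19 across the exosome libraries (log2 change -0.30, SE 0.06). CD63, a tetraspanin of endosomes and exosomes, was at 1108, 1149 and 1110 FPKM across the controls and 1019, 1054 and 1044 across the exosome libraries (log2 change -0.11). UPK1B, a uroplakin of the family, was at 395.4 ± 3.00 and 371.1 ± 3.50 FPKM (SD, n = 3; log2 change -0.09), again without overlap. CD151, a partner of laminin-binding integrins, overlapped between the groups (log2 change -0.08). TSPAN12, chosen after its values were seen, was the 1 on the higher side, at 20.9, 18.9 and 17.8 FPKM across the controls and 31.2, 20.0 and 33.6 across the exosome libraries, where replicate 2 lay inside the control range.

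Of 33 adhesion receptors of the class of GPR110, 8 had values. Among the other 7, 0 passed the adjusted threshold in limma and 0 had an unadjusted p below 0.05, and the groups overlapped in each, although those of CD97, chosen after its values were seen, separated with the exosome libraries higher under each of the 3 other scalings. Their median log2 change was 0.05. ADGRG2, an epididymal and epithelial receptor, was at 91.8 ± 6.93 FPKM in controls and 89.8 ± 3.36 with exosomes (SD, n = 3; log2 change -0.03). GPR56 was at 61.3 ± 0.888 and 60.2 ± 2.67 FPKM (log2 change -0.03), and ADGRL2, a latrophilin, had a log2 change of -0.01. The 7 other receptors ranged from -0.03 to 0.18, against -0.68 for GPR110, a contrast that the choice of GPR110 for its difference brings with it.

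CD24 and CD90 share the GPI anchor with 21 other genes that had values, of 62 listed. Of the 21, 0 passed in limma, and 3 lay lower and 1 higher with an unadjusted p below 0.05, against 7.5% and 5.06% of all genes. The median log2 change was -0.07. The groups did not overlap in 4 with the exosome libraries lower (19.0%) and in 2 with them higher (9.52%), against 10.4% and 8.29% of all genes. With the libraries rescaled to the same sum these counts were 2 lower and 3 higher, against 5.38% and 15.2% of all genes. With quantile normalization they were 2 and 2, where 2018 of all genes tested separated in either direction. VNN2, a vanin of the vascular and leukocyte surface, was at 4.31 ± 0.331 and 3.18 ± 0.299 FPKM (SD, n = 3; log2 change -0.34), and EFNA1, an ephrin ligand, at 53.8 ± 1.51 and 47.5 ± 3.47 (log2 change -0.18). FOLR2, a folate receptor, lay on the other side, at 3.66 ± 0.159 and 4.76 ± 0.512 FPKM (log2 change 0.30). The abundant genes PLAUR, the urokinase receptor, and CD55, a complement regulator, had log2 changes of -0.30 and -0.15 with overlapping groups. PLAUR was at 147.3 and 154.5 FPKM in exosome replicates 1 and 3 but at 251.3 in replicate 2, above all controls. MSLN, mesothelin, was at 121.1, 122.6 and 129.5 FPKM across the controls and at 95.3, 107.7 and 120.7 across the exosome libraries.

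ELF3 was set beside the other ETS factors, of which 14 besides ELF3 were tested from 28 listed. Of the 14, 0 passed in limma, and 4 lay lower and 0 higher with an unadjusted p below 0.05, against 7.5% and 5.06% of all genes. In 3 (21.4%, against 10.4% of all genes) the groups did not overlap with the exosome group lower. The median log2 change was -0.04, or 0.0063 with the libraries rescaled to the same sum. ELF5, also epithelial and much less abundant than ELF3, was at 6.10, 8.25 and 7.19 FPKM across the controls and 4.33, 3.70 and 5.93 across the exosome libraries (log2 change -0.54, SE 0.16). EHF, the next most abundant epithelial factor, was at 128.4, 141.7 and 146.8 FPKM across the controls and 126.5, 128.7 and 123.1 across the exosome libraries, where replicate 2 crossed the lowest control (log2 change -0.14). ETV4 and ETV6 had log2 changes of -0.12 and -0.20 without overlap, and ETS1 was at -0.02 with overlap.

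A wider list of 36 epithelial transcription regulators, 19 of them tested besides ELF3, had 17 negative and 2 positive log2 changes and a median of -0.11; with the libraries rescaled to the same sum these were 14, 5 and -0.06. Of these 19, 0 passed in limma, and 4 lay lower and 0 higher with an unadjusted p below 0.05, against 7.5% and 5.06% of all genes. In 5 (26.3%, against 10.4% of all genes) the groups did not overlap with the exosome group lower. With the libraries rescaled to the same sum this held for 2 of the 19, against 5.38% of all genes. EMX2, a homeobox gene of the uterus, was at 13.6 ± 0.127 and 11.8 ± 0.366 FPKM (SD, n = 3; log2 change -0.19). KLF5, the most abundant regulator, and MSX1, a homeobox gene of uterine epithelium in mice, had log2 changes of -0.10 and -0.19 with overlapping groups.

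Genes described as ELF3 targets in other species and cells lay on both sides of 0. Of 19 listed 8 had values and 0 passed in limma. With an unadjusted p below 0.05, 2 lay lower and 1 higher, against 7.5% and 5.06% of all genes. The median log2 change was -0.07, or 0.0008 with quantile normalization. PTGS2, the inducible cyclooxygenase, was at 322.6, 383.2 and 362.4 FPKM across the controls and 207.9, 293.5 and 214.1 across the exosome libraries (log2 change -0.59). KRT8 had a log2 change of -0.12. CXCL8, a neutrophil chemokine, lay on the other side, at 339.8, 240.1 and 230.8 FPKM across the controls and 569.2, 346.2 and 484.6 across the exosome libraries (log2 change 0.78). TGFBR2, the type II receptor of TGF-beta, was at 403.4 ± 17.9 and 397.7 ± 33.4 FPKM (SD, n = 3; log2 change -0.02).

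Partners and proteases of EPCAM were counted from a list of 22, of which 16 besides TACSTD1 had values. Of these, 0 passed in limma, and 3 lay lower and 0 higher with an unadjusted p below 0.05, against 7.5% and 5.06% of all genes. In 3 (18.8%) the groups did not overlap with the exosome group lower, against 10.4% of all genes. For genes at or above the level of GPR110 that share was 15.3%. The median log2 change was -0.05 with 13 negative, against 8 negative with the libraries rescaled to the same sum. ST14, the protease matriptase that can cleave EPCAM, was at 343.5 ± 3.46 and 310.9 ± 20.3 FPKM (SD, n = 3; log2 change -0.15). NCSTN, a subunit of the gamma-secretase that releases the EPCAM tail, had a log2 change of -0.13, and its groups did not overlap. SPINT1 and SPINT2, the membrane inhibitors of matriptase, had log2 changes of -0.15 and -0.10 with overlapping groups.

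**Figure D5:**
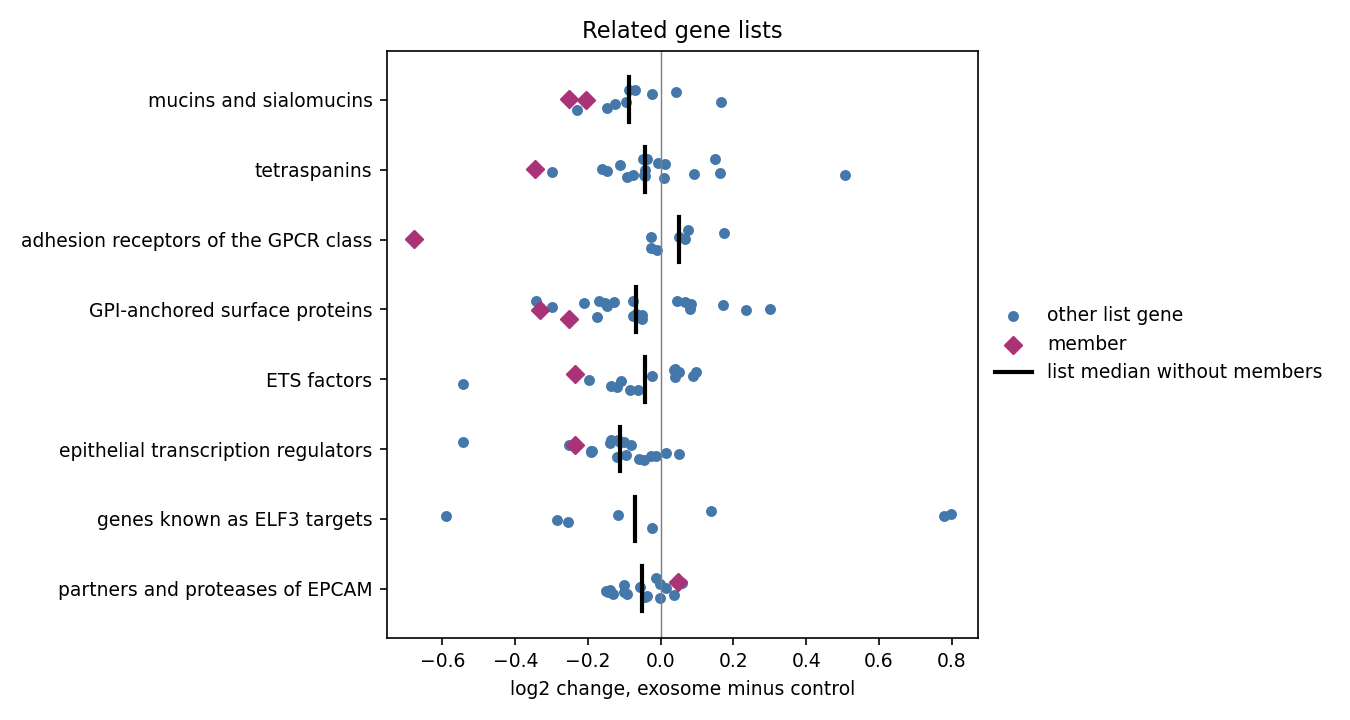
Log2 change (exosome minus control) of every gene with values in the 8 related lists, with the 7 genes of this account as diamonds, other genes as points and a black bar at the list median without them. The bars lie between -0.11 for epithelial transcription regulators and 0.05 for adhesion receptors, where GPR110 stands at -0.68.

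Genes whose profile over the 6 libraries was most like that of each member were found by the root mean square (RMS) difference of log2(FPKM + 1), each gene centred on its own mean. Among the members themselves, CD24 and ELF3 were the closest pair, with an RMS difference of 0.05, followed by CD90 and TSPAN1 at 0.06. For reference, 12.8% of all genes tested lay within 0.1 of ELF3, 3.33% within 0.1 of CD90 and 43.4% within 0.1 of TACSTD1, whose profile was nearly flat. No gene lay within 0.1 of GPR110, which had the largest difference. Its nearest genes were MVK, mevalonate kinase, at 0.10, FBP1, fructose bisphosphatase, at 0.10, and PTGS2 at 0.11, with log2 changes of -0.59, -0.52 and -0.59.

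For ELF3 the nearest genes were ZNF667, a zinc finger protein, ANXA9, an annexin, and KAT5, a histone acetyltransferase (RMS differences of 0.02, 0.02 and 0.03). Those of CD24 were CCDC149, CNPPD1 and PAFAH1B3 (0.01 to 0.03), and those of MUC1 were TPRA1, RARG, a retinoic acid receptor, and CCDC191 (0.01 to 0.04). CD90 was nearest to NPAS2, a clock transcription factor, LITAF, a lysosomal membrane protein, and FAM117A (0.02 to 0.03). TSPAN1 was nearest to HID1, a trafficking protein of the Golgi, SGSH, a lysosomal sulfatase, and ND5, a mitochondrially encoded subunit of complex I (0.02 to 0.03). TACSTD1 was nearest to MRPS9, RPL4 and PRDX4 (0.02 each). All these profiles share the same 6 libraries, and with so few libraries many genes have a like profile.

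The members lie on separate chromosomes as far as they could be placed, which was 6 of 7, all but CD24. Protein-coding neighbours up to 2 places away in the RefSeq table had values for 12 genes around MUC1, CD90, TSPAN1, TACSTD1 and GPR110. The groups did not overlap in 2 of these 12, against 10.4% of all genes with the exosome group lower. They were TRIM29, the second gene from CD90, and POMGNT1, next to TSPAN1, with log2 changes of -0.17 and -0.10. The immediate neighbours of MUC1 were THBS3, a thrombospondin, and TRIM46, at log2 changes of -0.03 and -0.13. TNFRSF21 and CD2AP, on 1 side of GPR110, had log2 changes of 0.10 and 0.0035 with overlapping groups. These neighbours were named for their position alone.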

How the data were processed

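RNA of 6 libraries, 3 control and 3 exosome, was made into strand-specific mRNA libraries, per the labels' protocols. The submitters' processing notes name bcl2fastq 1.8.4, TopHat, Cufflinks and the Sscrofa11.1 build; other versions, the annotation and filters were not given in the sources used here. Values of the authors were read as FPKM because Cufflinks is named and the values fit that unit, since no header names one. No value was 0 (lowest 0.0882). Counts were not used here and depth is unknown, so no counting intervals are given. Titles gave the groups and column names the samples.

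On the log2(FPKM + 1) scale, the 10846 genes whose mean reached 1 FPKM were tested with limma 3.58.1 in R 4.3.3 (two-sided, intensity trend, 4 residual degrees of freedom, Benjamini-Hochberg over all genes tested). The script was tested on simulated data. Summed marker levels were compared by exact permutation (scipy 1.17.1), and figures drawn with matplotlib 3.10.9.

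The members and lists were chosen with earlier results of these data known. Of 305 list symbols 132 were found, by symbol, alias or, for rows with no symbol, the reference gene table; where several rows matched, the most abundant was used (4 entries). The identifiers of CLDN3 and PRSS8 carry another symbol in that table. Genes named were the members, per list the 3 highest in level and up to 3 with the smallest p among those without overlap, the 3 nearest profiles of each member, and the 3 most abundant markers of each cell type; some genes that meet these rules are not reported here. Any other gene is named as a chromosomal neighbour or as picked after its values were seen. Sequences and promoters were not analysed here.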

Additional observations from a re-analysis of the deposited data

How the results depend on the processing

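Alternatives were other pseudocounts (0.5 and 0.1), filters (none, or a mean of at least 5 FPKM), scalings (same sum, median ratio, quantile), no intensity trend, the replicate number as a block and each library left out in turn. In the 98 recomputed log2 changes of members, each kept its sign and 96 moved by less than the spread between replicates. The other filters and the replicate block cannot change the log2 change of a member, so those among the 98 were the same by construction. With quantile normalization CD24 moved to -0.0763 and CD90 to -0.266. The number of genes past the threshold stayed at 0 except in the fits without 1 library, where it ranged from 0 to 297. The number with no overlap, 2024 as deposited, ranged from 2653 to 4438 without 1 library. Leaving out a library can only raise this number, since genes separated in all 6 libraries stay separated, so nothing is read from the rise. Of the 112 recomputed list medians 99 moved by less than the spread between replicates, those with the replicate block by construction. List medians in this section include the members. For adhesion receptors the median as deposited was 0.0207 with GPR110, against 0.05 without it. Rescaling to the same sum raised the median of all genes from -0.00229 to 0.0442, and with it the list medians to 0.0040 for tetraspanins, 0.0699 for adhesion receptors, -0.0319 for GPI-anchored proteins, -0.0647 for epithelial regulators, -0.0197 for ELF3 targets and 0.0060 for EPCAM partners. Left-out libraries gave medians from -0.1465 to 0.0175 for mucins, -0.0937 to -0.0152 for tetraspanins, -0.1176 to -0.0507 for GPI-anchored proteins and -0.1005 to -0.0172 for ELF3 targets. The ELF3 target median was also -0.0232 with the filter at 5 FPKM and 0.0008 with quantile normalization. For these other shifts the cause was not tested. The summed levels of epithelial, stromal, smooth muscle and pericyte, and immune markers, under alternatives added after seeing the data, kept their direction. The endothelial marker KDR and the sperm marker ACRBP were not among these sums. Same-numbered libraries of the groups did not deviate together in all pairs (correlations of 0.161, 0.144 and -0.0701). With 3 libraries a group their deviations are bound to each other, so these correlations cannot decide whether the numbers mark pairs. The main fit did not take the numbers as pairs, and with the replicate block 0 genes passed.

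The precision of low values such as those of COL3A1 is unknown without read counts, which were not used here, and with 3 libraries a group an exact permutation p cannot fall below 0.1.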
